A study of Homo sapiens with 12 samples.

Results

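Cyclin-dependent kinase (CDK) inhibitors and target genes of the transcription factor p53 were followed in L540 cells after engagement of the receptor CD30 (TNFRSF8). L540 is an established Hodgkin lymphoma line, and CD30 belongs to the TNF receptor superfamily. The genes were chosen by symbol, with old symbols on the array updated through the Entrez identifier. They were the CDK inhibitors CDKN1A, CDKN1B, CDKN2C and CDKN2D and the p53 targets MDM2, GADD45A, SESN1, SESN2, AEN and BTG2, with CDKN1A belonging to both classes. Of these 10 genes, 8 had a named probe, with 13 probes of the 48780 on the array, set among 18846 genes with a named probe. CDKN2C and BTG2 were not analysed here. Probes entered the tests where their detection p-value, which sets a signal against the negative control beads, was under 0.01 on each array of 1 group or more. That left 7 of the 8 genes among 8113 genes tested, and SESN2, detected on 0 arrays, was not tested. Each count below covers those 7 genes.

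The study asked how L540 cells respond to the CD30 ligand and to antibodies against CD30, and measured RNA on 12 Illumina HumanHT-12 v3 arrays in 6 groups of 2 biological duplicates. 5 groups were treated at 10 µg/ml, with the CD30 ligand fused to an Fc part (CD30L-Fc), with the antibody T104, with the mouse/human chimeric antibody PW30, or with the antibodies T427 or T408, and the sixth was left untreated. All cells were first cultured for 16 h. The sample labels give 24 h of treatment, whereas the series text gives 8 h and calls the labels wrong, and it writes T428 where the labels have T408. The single line studied, and 2 arrays a group, limit what the groups can stand for, and the labels do not state whether untreated cells received a carrier.

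CDK inhibitors hold the cell cycle in G1. CDKN1A (p21) and CDKN1B (p27) bind complexes of cyclins with CDK2, while CDKN2C (p18) and CDKN2D (p19) of the INK4 family bind CDK4 and CDK6. CDKN1A is also the classical target of p53, which after DNA damage or other stress switches on genes that stop the cycle (CDKN1A, GADD45A, BTG2), break down nucleic acid in dying cells (AEN), limit mTORC1 signalling and oxidative stress (SESN1, SESN2), and close a negative feedback loop (MDM2, the ubiquitin ligase that degrades p53). Several of these genes, CDKN1A among them, are also known to respond to signals other than p53, and CD30 is known for signalling to NF-kB.

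Promoter windows are shown for CDKN1A and AEN, the members that rose after more than 1 treatment, and for MDM2, the one called lower. RefSeq (GRCh38.p14) windows of 250 bases before to 50 bases after a transcript start were matched by symbol for 9 of the 10 members (not GADD45A), in 16 windows. Capitals mark the p53 decamer, a motif of 10 letters with ambiguity codes, searched on both strands. The window of CDKN1A at chr6:36678464-36678763 (plus strand), that of AEN at chr15:88621090-88621389 (plus strand), and an MDM2 window at chr12:68808767-68809066 (plus strand), the third of its 4 windows along the chromosome, read 5′ to 3′ as follows.
CDKN1A: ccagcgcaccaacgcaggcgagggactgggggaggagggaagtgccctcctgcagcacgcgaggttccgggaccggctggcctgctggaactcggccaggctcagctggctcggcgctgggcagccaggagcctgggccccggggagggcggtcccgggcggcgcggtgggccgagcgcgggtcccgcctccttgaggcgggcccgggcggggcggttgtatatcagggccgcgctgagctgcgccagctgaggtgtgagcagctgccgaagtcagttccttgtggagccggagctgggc
AEN: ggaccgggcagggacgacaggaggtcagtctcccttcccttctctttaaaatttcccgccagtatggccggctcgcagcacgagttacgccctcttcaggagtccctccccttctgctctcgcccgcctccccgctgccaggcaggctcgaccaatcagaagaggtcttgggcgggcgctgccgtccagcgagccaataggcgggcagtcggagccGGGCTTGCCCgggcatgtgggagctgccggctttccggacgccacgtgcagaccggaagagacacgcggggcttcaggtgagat
MDM2: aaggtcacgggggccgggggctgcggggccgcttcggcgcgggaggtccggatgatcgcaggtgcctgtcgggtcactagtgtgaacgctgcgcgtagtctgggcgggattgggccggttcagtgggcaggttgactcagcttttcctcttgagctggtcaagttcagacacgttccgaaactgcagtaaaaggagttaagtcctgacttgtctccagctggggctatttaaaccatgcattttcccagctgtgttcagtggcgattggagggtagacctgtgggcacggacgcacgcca
AEN held a decamer, GGGCTTGCCC, from 34 to 25 bases before its start, and SESN1 held GGACAAGTCT from 49 to 40 bases before 1 of its 3 starts, at chr6:109008939-109009238 (minus strand). Both read as a decamer on either strand. That makes 2 of 16 member windows, against 6.63% of all 35116 windows. A pair of decamers separated by 0 to 13 bases was in 0 member windows and in 0.0285% of all windows. Only exact matches to the ambiguity codes were counted. A p53 site with a mismatch would be missed, so these counts do not show that p53 sites are absent. The kB site bound by NF-kB, of 10 letters with ambiguity codes, was in 1 member window and in 11.3% of all windows. The member match lay from 123 to 114 bases before the SESN2 start. It was found on the strand opposite to the gene, and the gene's own strand reads GGAGTTTCCC there. The letters TATAAA were in 0 member windows and in 11.5% of all windows. A match is a description of letters, and a window without one says only that these letters are not in it.

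The arrays were alike in quality but not identical between groups. Median signal before normalization lay between 129.9 and 151.7, with the PW30, T427 and T408 arrays at 136.3 or less and the CD30L-Fc and untreated arrays at 144.0 or more, and 10910 to 12005 probes per array were detected. Duplicates correlated at 0.991 to 0.993 across probes. TNFRSF8 itself was detected on 11 of 12 arrays and was called after 0 of the 5 treatments. Of 8 markers of Hodgkin lines 6 were detected on all arrays, and of the B cell markers with a probe, 4 of 4 were detected on 0 arrays. Of 4 monocyte and macrophage markers, CD68 and CSF1R were detected on all 12 arrays, LYZ on 1 and CD14 on 0. Of 6 fibroblast and epithelial markers 5 were detected on 0 arrays, and VIM was on all.

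CDKN1A rose by more than 2-fold after CD30L-Fc, T104 and PW30, and was the only member called after all 3 of these treatments. AEN rose after CD30L-Fc and PW30, and GADD45A rose after PW30. MDM2 was called lower after PW30, on a probe near background that was detected on 0 of the 2 PW30 arrays. A gene was called where limma's moderated test gave a Benjamini-Hochberg adjusted p below 0.05 over all 8113 genes. After PW30, 3 of the 7 tested members were called higher and 1 lower, where 11.1% of all genes were called (6.27% higher, 4.79% lower). After CD30L-Fc, 2 members were called higher and 0 lower, where 8.33% of all genes were called (5.46% higher, 2.87% lower). After T104, 1 member was called higher, CDKN1A, and 0 lower, where 9.44% of all genes were called (5.92% higher, 3.53% lower). After T427 and after T408 limma called 0 of the 7 members, where it called 0.333% and 0.271% of all genes. At an unadjusted p below 0.05 the members were 0 after T427 and 1, AEN, after T408, where 7.51% and 7.99% of all genes passed. These 5 comparisons share the 2 untreated arrays, so a deviation of those arrays enters them all. In bulk RNA, fewer cells expressing a gene and less RNA per cell cannot be told apart.

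The members did not move as a block. Their median log2 change was 0.31 after PW30, 0.20 after T104, 0.12 after CD30L-Fc, 0.04 after T427 and 0.12 after T408, while the medians of all genes tested were -0.05, -0.04, -0.04, -0.01 and -0.02. The arrays of the treated and the untreated groups did not overlap for 6 members after PW30, 6 after T104, 5 after CD30L-Fc, 3 after T427 and 4 after T408. The same held for 51.1%, 50.6%, 49.7%, 34.1% and 34.8% of all genes tested. With 2 arrays against 2, an exact permutation test of a single gene cannot go below p = 0.333. The calls thus rest on limma's spread, which pools a gene's 12 arrays and is moderated towards the spread of all genes tested. Of 12.01 degrees of freedom in total, 6 come from the gene's own arrays.

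**Figure D1:**
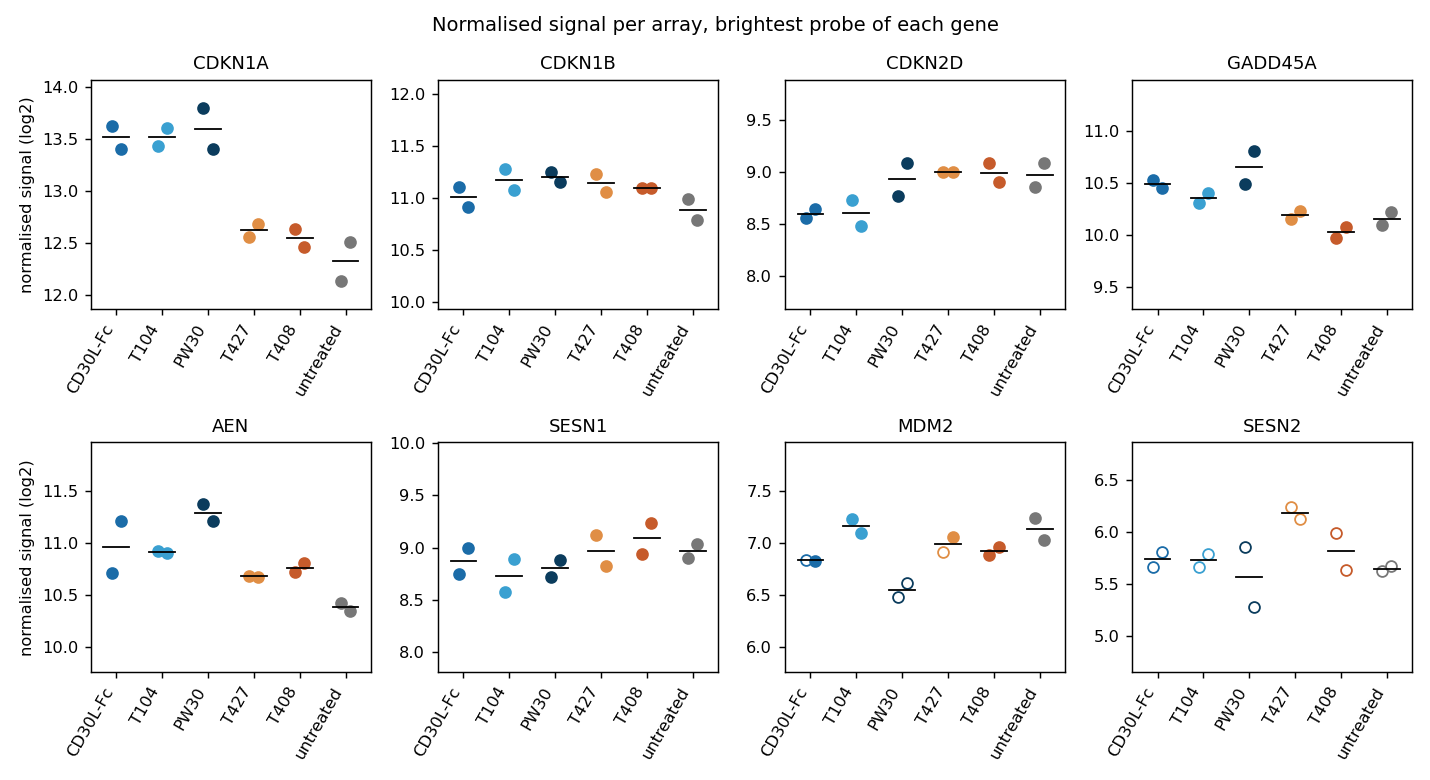
Normalized log2 signal (vertical axes) of the 8 members with a probe on each of the 12 arrays, by group (CD30L-Fc, T104, PW30, T427, T408, untreated); horizontal lines are group means and open points mark arrays on which the probe was not detected. CDKN1A lies at 13.40 or above on the CD30L-Fc, T104 and PW30 arrays and at 12.69 or below on the other 6, whereas SESN2 was not detected on any array.

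CDKN1A, the inhibitor of cyclin E and CDK2, had log2 signals of 13.62 and 13.41 on the CD30L-Fc arrays, 13.43 and 13.60 on the T104 arrays and 13.79 and 13.40 on the PW30 arrays. The T427 arrays read 12.56 and 12.69, the T408 arrays 12.63 and 12.46, and the untreated arrays 12.14 and 12.51. All 6 arrays of the CD30L-Fc, T104 and PW30 groups thus stood above all 6 others, and the gap of 0.89 between the T104 and T427 means was the only one, between neighbouring groups in the order of means, whose arrays did not overlap. The change against untreated cells was 1.27 ± 0.17 after PW30, 1.19 ± 0.17 after T104 and 1.19 ± 0.17 after CD30L-Fc (log2 ± SE, n = 2 arrays a group), or 2.42-fold, 2.28-fold and 2.28-fold. The limma adjusted p-values were 3.59e-04, 5.48e-04 and 5.74e-04. By size of rise CDKN1A ranked 106 after PW30, 120 after T104 and 117 after CD30L-Fc among the 8113 genes. Before normalization its signal ran from 4909 to 13088 across the arrays, far above background.

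A second CDKN1A probe, designed against another transcript record, was much dimmer. It read 7.37 and 7.39 after CD30L-Fc, 7.43 and 7.63 after T104, and 7.37 and 7.59 after PW30. After T427 it read 6.82 and 6.63, after T408 5.88 and 6.74, and on the untreated arrays 6.54 and 6.17. The probe was detected on all 6 arrays of the first 3 groups, on 1 of the other 6 and on 0 of 2 untreated arrays. It therefore passed the filter through the groups in which it was high, and its calls are no separate support for the rise. Only lower bounds hold, of at least 1.44-fold after PW30, 1.497-fold after T104 and 1.35-fold after CD30L-Fc, with limma adjusted p-values of 0.0109, 0.00861 and 0.0202 in a fit of every tested probe. Each bound sets the treated mean against the higher of the probe's own signal and the dimmest detected signal on each untreated array. The bounds hold for the background correction used here, and they are bounds on the means that carry no sampling error. Over the 12 arrays the probes of CDKN1A correlated at r = 0.83, a description in which both probes share the arrays and their normalization.

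After T427 and T408 CDKN1A lay nearer to the untreated level. The change was 0.30 after T427 (95% interval -0.06 to 0.66, limma adjusted p = 0.751) and 0.22 after T408 (-0.14 to 0.59, adjusted p = 0.779), and the upper bounds are the largest rises these intervals allow. The difference between treatments was tested directly. CDKN1A was 0.89 ± 0.17 lower in T427-treated than in CD30L-Fc-treated cells and 0.97 ± 0.17 lower in T408-treated than in CD30L-Fc-treated cells (log2 ± SE), with limma adjusted p-values of 0.00821 and 0.00492. It was the 1 member called in each of these comparisons, in which 5.00% and 5.32% of all genes were called (3.69% and 3.73% lower). Each call was lost on leaving out either of 2 arrays. Without the first CD30L-Fc array the adjusted p was 0.0847 for T427 and 0.0537 for T408, and it was 0.0729 without the first T427 array and 0.0518 without the second T408 array.

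T104 and PW30 were not told apart from the ligand at CDKN1A. The T104 minus CD30L-Fc difference had a 95% interval of -0.36 to 0.36, and the PW30 minus CD30L-Fc difference was 0.08 (-0.28 to 0.44). Across the 7 tested members limma called 0 in T104 against CD30L-Fc and 0 in PW30 against CD30L-Fc, where it called 0% and 0.160% of all genes. At an unadjusted p below 0.05 the members were MDM2 in the first, and AEN, CDKN2D and MDM2 in the second, where 3.44% and 13.4% of all genes passed. The intervals above bound the differences and do not show that the agents act alike.

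**Figure D2:**
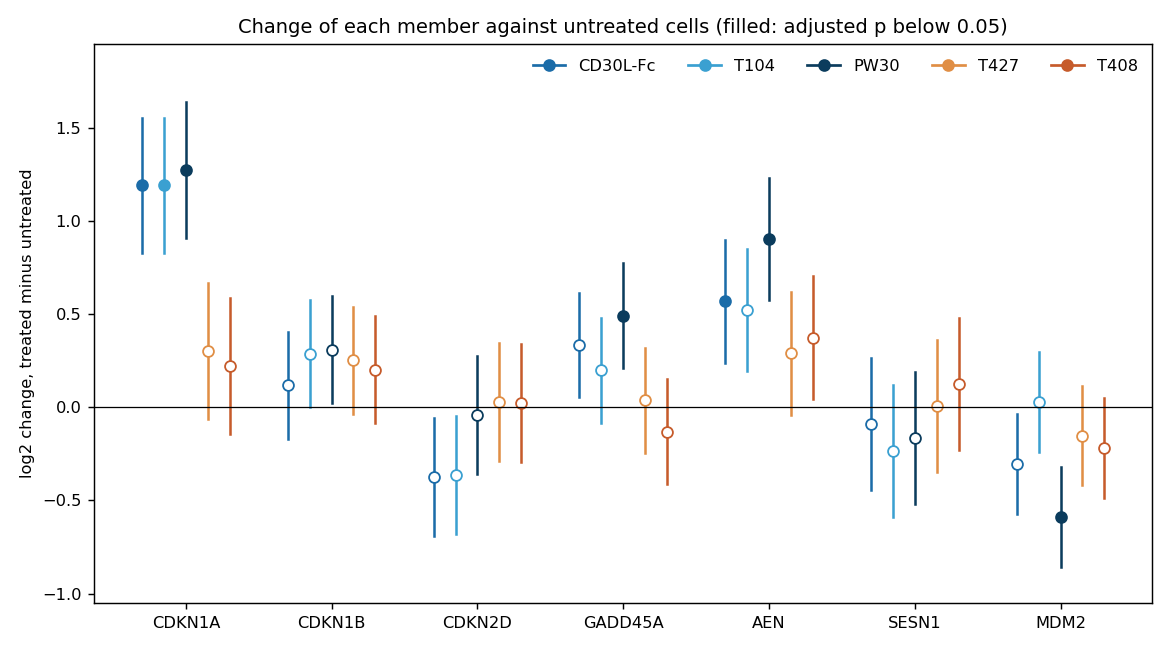
Log2 change (vertical axis) of the 7 tested members after each of the 5 treatments, relative to untreated cells, with 95% intervals; filled points passed an adjusted p below 0.05. The filled points are CDKN1A after CD30L-Fc, T104 and PW30, AEN after CD30L-Fc and PW30, and GADD45A and MDM2 after PW30, with MDM2 the one below 0.

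The other CDK inhibitors were not called in any comparison. CDKN1B, which like CDKN1A binds cyclin and CDK2 complexes, read 11.10 and 10.91 after CD30L-Fc, 11.28 and 11.07 after T104, 11.25 and 11.15 after PW30, 11.23 and 11.06 after T427, 11.09 and 11.09 after T408, and 10.99 and 10.79 untreated. Its arrays overlapped between all neighbouring groups in the order of means, although each treated mean stood above the untreated one. Against untreated cells alone, every T104, PW30, T427 and T408 array stood above both untreated ones, whereas the CD30L-Fc arrays overlapped them. Between 34.1% and 51.1% of all genes tested did not overlap in those 4 comparisons. The differences were 0.31 after PW30 (95% interval 0.02 to 0.60), 0.29 after T104, 0.25 after T427, 0.20 after T408 and 0.12 after CD30L-Fc, with limma adjusted p-values of 0.158, 0.218, 0.722, 0.749 and 0.669. A second CDKN1B probe gave 0.42, 0.50, 0.37, 0.24 and 0.30 in the same order of treatments, the smallest limma adjusted p being 0.0921 after T104. With the mean of both probes CDKN1B passed after T104 (0.39, limma adjusted p = 0.0433), the one of 24 alternatives in which it was called in that comparison. The probes correlated at r = 0.38 over the 12 arrays.

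CDKN2D, which binds CDK4 and CDK6, read 8.56 and 8.64 after CD30L-Fc and 8.73 and 8.48 after T104. The PW30 arrays read 8.77 and 9.08, the T427 arrays 9.002 and 8.99, the T408 arrays 9.08 and 8.90, and the untreated arrays 8.86 and 9.08. The CD30L-Fc and T104 arrays lay below all the others, and those of the PW30, T427, T408 and untreated groups overlapped. The differences of -0.37 after CD30L-Fc (95% interval -0.69 to -0.06) and -0.36 after T104 did not pass the test (limma adjusted p = 0.155 and 0.159). After PW30, T427 and T408 the differences were -0.04, 0.03 and 0.02. A second CDKN2D probe was detected on 0 arrays.

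AEN, a p53-induced nuclease of apoptotic cells, was the second member to rise. Its arrays read 10.71 and 11.21 after CD30L-Fc, 10.92 and 10.90 after T104, and 11.37 and 11.21 after PW30. They read 10.68 and 10.67 after T427, 10.72 and 10.81 after T408, and 10.43 and 10.35 untreated. Every treated array stood above both untreated ones, and the CD30L-Fc duplicates were the widest apart of any group for this gene. AEN rose by 0.90 ± 0.15 after PW30 (1.87-fold, limma adjusted p = 0.00207) and by 0.57 ± 0.15 after CD30L-Fc (1.48-fold, limma adjusted p = 0.0364). After T104 the difference of 0.52 ± 0.15 missed the threshold (limma adjusted p = 0.0504), as did 0.37 after T408 (95% interval 0.04 to 0.70, adjusted p = 0.541) and 0.29 after T427 (-0.04 to 0.62, adjusted p = 0.722). PW30-treated cells exceeded CD30L-Fc-treated cells by 0.33 (95% interval 0.01 to 0.66), which was not called (limma adjusted p = 0.364).

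The AEN call after PW30 was kept under all 24 alternatives, whereas that after CD30L-Fc was kept under 11. Without the second CD30L-Fc array the rise was 0.32 (limma adjusted p = 0.3), and leaving out any of 9 of the 12 arrays ended the call. After T104 AEN was called under 8 of the 24 alternatives, with adjusted p-values between 0.0101 and 0.191 over all of them.

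GADD45A, a stress protein that binds PCNA and CDK1, read 10.53 and 10.46 after CD30L-Fc, 10.31 and 10.40 after T104, and 10.50 and 10.80 after PW30. After T427 it read 10.16 and 10.24, after T408 9.98 and 10.08, and on the untreated arrays 10.10 and 10.22. The 6 CD30L-Fc, T104 and PW30 arrays stood above the 6 others, as for CDKN1A, but by a smaller margin. GADD45A rose by 0.49 ± 0.13 after PW30 (1.41-fold, limma adjusted p = 0.0289). The differences of 0.33 after CD30L-Fc (95% interval 0.05 to 0.62) and 0.20 after T104 were not called (limma adjusted p = 0.149 and 0.404), nor were those of 0.04 after T427 and -0.13 after T408. T408-treated cells differed from CD30L-Fc-treated cells by -0.47 (limma adjusted p = 0.0606), which was called under 7 of 24 alternatives.

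The rise of GADD45A after PW30 was lost under 7 of 24 alternatives. With arrays scaled to their median it was 0.39 (limma adjusted p = 0.0965). Without the second PW30 array it was 0.34 (adjusted p = 0.191), without the first untreated array 0.43 (adjusted p = 0.127) and without the second untreated array 0.55 (adjusted p = 0.0546). A dimmer GADD45A probe gave 0.41 after PW30 and 0.42 after CD30L-Fc, neither called (limma adjusted p = 0.123 and 0.137), and the probes correlated at r = 0.65 over the 12 arrays.

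**Figure D3:**
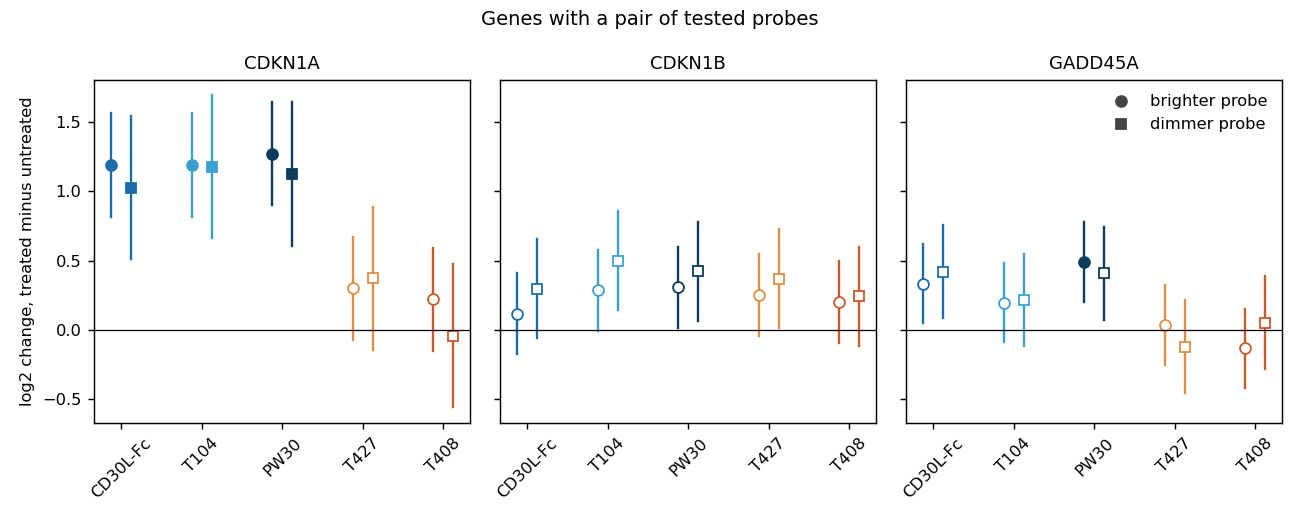
Log2 change against untreated cells (vertical axes) with 95% intervals for both probes (circles, the brighter probe; squares, the dimmer) of CDKN1A, CDKN1B and GADD45A after each treatment. Both CDKN1A probes lie above 1 after CD30L-Fc, T104 and PW30, the dimmer one as a measured difference against untreated arrays on which it was not detected, whereas the probes of CDKN1B and GADD45A lie at 0.50 or below throughout.

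MDM2, the feedback inhibitor of p53, was close to background. Its brighter probe read 6.84 and 6.83 after CD30L-Fc, 7.23 and 7.10 after T104, 6.48 and 6.62 after PW30, 6.92 and 7.06 after T427, 6.88 and 6.96 after T408, and 7.24 and 7.03 untreated. The probe was detected on 8 of 12 arrays, on 0 of 2 after PW30 and on 2 of 2 untreated arrays, and the PW30 arrays were the lowest of all. MDM2 therefore passed the filter through the groups in which it was higher, and its call as lower is not taken as support for a fall. With the background correction used here, and only with it, MDM2 was lower after PW30 than in untreated cells by at least 1.405-fold. The measured difference was -0.59 ± 0.12, with a limma adjusted p of 0.00888. The bound sets the untreated mean against the higher of the probe's own signal and the dimmest detected signal on each PW30 array.

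The fall of MDM2 was kept under 17 of the 23 alternatives that tested it, and not under those that changed the treatment of background. Without background correction the difference was -0.29 (limma adjusted p = 0.0816), and in the authors' processed values it was also -0.29 (adjusted p = 0.0815). It was lost without the first untreated array (adjusted p = 0.067) and without the first PW30 array (adjusted p = 0.0672). After CD30L-Fc the difference was -0.30 (95% interval -0.57 to -0.03, limma adjusted p = 0.174), and after T104, T427 and T408 it was 0.03, -0.15 and -0.22, none called. Median array signal before normalization was low on the PW30 arrays too (131.4 and 130.3, against 148.6 and 151.7 on the untreated arrays), and its part in the result was not tested. A second MDM2 probe was detected on 0 arrays.

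No change was called for the sestrins. SESN1 read 8.75 and 8.9996 after CD30L-Fc, 8.58 and 8.89 after T104, 8.72 and 8.88 after PW30, 9.12 and 8.82 after T427, 8.94 and 9.24 after T408, and 8.90 and 9.03 untreated. Neighbouring groups overlapped throughout the order of means, although the T104 and PW30 arrays lay below both untreated ones. The largest difference was -0.23 after T104 (95% interval -0.59 to 0.12), and the limma adjusted p-values ran from 0.446 to 0.999 over the 5 treatments. SESN2 had detection p-values between 0.0211 and 0.236 on the 12 arrays and log2 signals between 5.27 and 6.24, so that no change could be read at this signal over background.

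Other genes of these pathways were counted by lists of known function. Of 18 other p53 targets tested (30 listed), 3 rose and 1 fell after PW30, 2 rose and 1 fell after T104, and 2 rose and 1 fell after CD30L-Fc, beside 6.27%, 5.92% and 5.46% of all genes called higher and 4.79%, 3.53% and 2.87% called lower. The list's median log2 changes were -0.09, -0.06 and -0.02 in those comparisons. FAS, the death receptor, is also a TNF receptor superfamily member. It read 10.24 and 9.52 after PW30, 9.73 and 9.72 after T104, 9.79 and 9.76 after CD30L-Fc, 8.18 and 8.26 after T427, 8.31 and 8.43 after T408, and 8.01 and 8.42 untreated. It rose by 1.67 ± 0.20, 1.51 ± 0.20 and 1.56 ± 0.20 after PW30, T104 and CD30L-Fc (limma adjusted p = 1.94e-04, 3.79e-04 and 3.12e-04). FAS was lower in T427-treated than in CD30L-Fc-treated cells, with a difference of -1.55 (adjusted p = 6.93e-04), and likewise in T408-treated cells, with -1.41 (adjusted p = 0.00143).

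CD82, a tetraspanin, had a pair of tested probes that disagreed. The probe that stands for it in the counts was detected on 8 of 12 arrays and on 0 of 2 untreated arrays, so that it passed the filter through the treated groups in which it was high. It read 8.00 and 7.89 after PW30, 8.17 and 7.83 after T104, 7.40 and 7.65 after CD30L-Fc, and 6.02 and 6.15 untreated. Only lower bounds on the means hold for it, of at least 1.995-fold, 2.07-fold and 1.49-fold with the background correction used here. The limma adjusted p-values were 1.04e-04, 7.66e-05 and 6.90e-04. The other CD82 probe, detected on 10 arrays and on both untreated ones, read between 6.39 and 7.40 over the 12 arrays and was not called. Its differences were 0.27, 0.35 and 0.002 after PW30, T104 and CD30L-Fc (limma adjusted p = 0.367, 0.279 and 0.997). With the mean of both probes the CD82 differences were 1.06, 1.13 and 0.72 (limma adjusted p = 6.73e-04, 4.38e-04 and 0.00915). That mean includes the probe that passed the filter through the treated groups. Neither its calls nor those of that probe are separate support for a rise. BTG1, an antiproliferative relative of BTG2, rose by 0.51 after PW30 (limma adjusted p = 0.0165), a call kept under 19 of 24 alternatives. TRIAP1, a small inhibitor of apoptosis, fell by 0.45 after PW30 (limma adjusted p = 0.047), a call kept under 9 of 24 alternatives. SUSD6 fell by 0.43 after T104 and by 0.42 after CD30L-Fc (limma adjusted p = 0.0372 and 0.0422), calls kept under 13 and 8 of 24 alternatives. The remaining p53 targets tested, BAX, PMAIP1, DDB2, XPC, ZMAT3 and RRM2B among them, were not called after any treatment, while BBC3, TP53INP1, PLK2, PLK3 and GDF15 were detected on 0 arrays.

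Of p53 regulators and kinases, 9 were tested, and 1 was called, EP300, a histone acetyltransferase and p53 coactivator. It was called lower after PW30, where 11.1% of all genes were called (4.79% lower), so the count is near that share. EP300 fell by 0.65 ± 0.17 after PW30 (limma adjusted p = 0.0339), reading 7.75 and 7.84 on the PW30 arrays, against 8.59 and 8.30 on the untreated arrays. The call was kept under 18 of 24 alternatives and lost without either PW30 array (limma adjusted p = 0.143 and 0.0904) or without the first untreated array (adjusted p = 0.176). ATM, CHEK1, CHEK2, MDM4, PPM1D, USP7, TP53BP1 and HIPK2 were tested and not called. The median log2 change of these 9 genes was -0.06 after PW30, 0.13 after T104 and 0.18 after CD30L-Fc, beside -0.05, -0.04 and -0.04 over all genes. Of 4 other CDK-binding proteins tested (CDKN2B, CDKN3, CKS1B, CKS2), 0 were called by limma after any treatment. After PW30, T104 and CD30L-Fc 11.1%, 9.44% and 8.33% of all genes were called, and the median log2 changes of these 4 were 0.01, -0.07 and -0.11. At an unadjusted p below 0.05, CDKN3 alone passed after T104 and after CD30L-Fc, where 22.8% and 21.4% of all genes passed. CDKN2A and CDKN1C were detected on 0 arrays.

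Among 7 tested relatives of the members (9 listed), ISG20, an exonuclease of the same family as AEN, rose after PW30, T104 and CD30L-Fc. It read 12.98 and 13.11 after PW30, 12.71 and 12.93 after T104, 13.06 and 12.91 after CD30L-Fc, 12.18 and 12.14 after T427, 12.18 and 12.02 after T408, and 11.48 and 11.93 untreated. Its rises were 1.34 ± 0.15, 1.11 ± 0.15 and 1.28 ± 0.15 (limma adjusted p = 1.36e-04, 5.14e-04 and 2.02e-04), each kept under 24 of 24 alternatives. TOB2, an antiproliferative protein of the BTG and TOB family, fell by 0.48 ± 0.12 after PW30 (limma adjusted p = 0.0261), a call kept under 14 of 24 alternatives. The list had 2 called higher and 1 lower after PW30, and 1 higher and 0 lower after T104 and after CD30L-Fc, with median log2 changes of -0.09, -0.02 and 0.17, where 11.1%, 9.44% and 8.33% of all genes were called in either direction. BTG1 stands in it as well, and GADD45B and SESN3 were detected on 0 arrays.

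**Figure D4:**
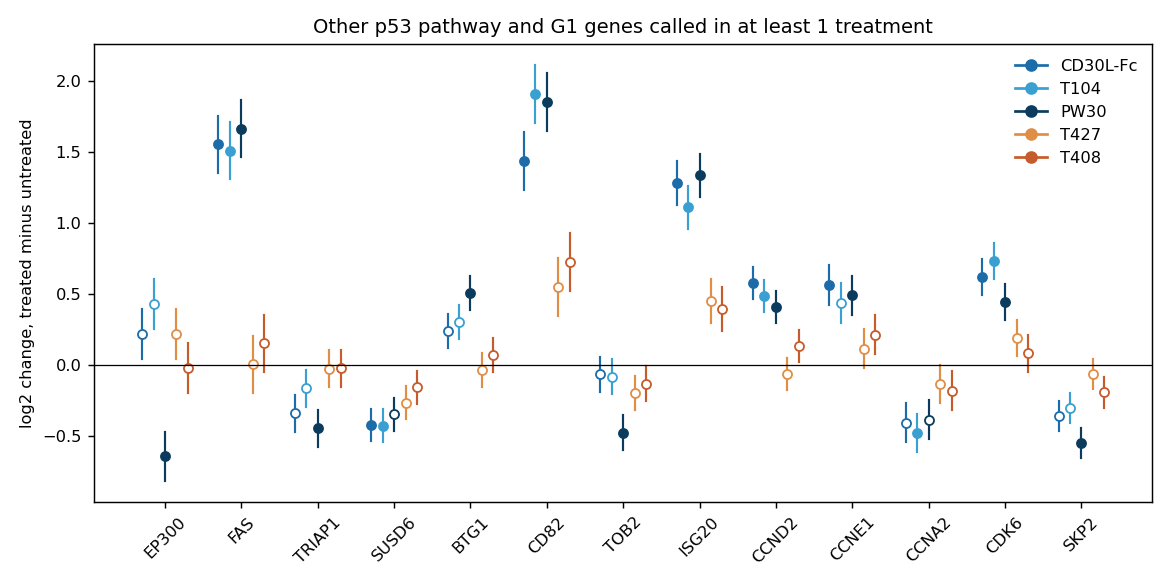
Log2 change against untreated cells (vertical axis; points with SE lines, filled where called) after CD30L-Fc, T104, PW30, T427 and T408 for each pathway gene outside the members that was called after at least 1 treatment. The highest points belong to CD82, FAS and ISG20 after CD30L-Fc, T104 and PW30; the CD82 points are measured differences of a probe not detected on the untreated arrays, and its other probe was not called.

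Among the G1 cyclins, CDKs and their partners, CDK6 and CCND2 rose after PW30, T104 and CD30L-Fc, and CCNE1 after PW30 and CD30L-Fc. The list also holds pocket proteins, E2F3, SKP2 and CDC25A. Of 14 tested (18 listed), 3 were called higher and 1 lower after PW30, 2 higher and 1 lower after T104, and 3 higher and 0 lower after CD30L-Fc, with median log2 changes of -0.04, -0.09 and -0.05. Over all genes 6.27%, 5.92% and 5.46% were called higher and 4.79%, 3.53% and 2.87% lower. CDK6, a target of CDKN2D, rose by 0.44, 0.74 and 0.62 after PW30, T104 and CD30L-Fc (limma adjusted p = 0.044, 0.00256 and 0.0085). The cyclin CCND2 rose by 0.41, 0.48 and 0.58 (adjusted p = 0.0366, 0.0174 and 0.00639), and CCNE1, the partner of CDK2, by 0.49 after PW30 and 0.56 after CD30L-Fc (adjusted p = 0.0419 and 0.025). The CCND2 probe lay near the top of the range, with signals before normalization of 34916 to 64814 and 41 to 138 probes on an array at least as bright, and whether it was saturated was not tested. A dimmer CCND2 probe, with signals of 21476 to 42209, gave larger rises of 0.86, 0.76 and 0.98 (limma adjusted p = 9.84e-04, 0.00230 and 4.69e-04). SKP2, the F-box protein that targets CDKN1B for degradation, fell by 0.55 ± 0.11 after PW30 (limma adjusted p = 0.00567). CCNA2, the S phase cyclin, fell by 0.48 after T104 (limma adjusted p = 0.0459). Several of these calls were close to the threshold. After PW30 CDK6, CCND2 and CCNE1 kept their calls under 8, 11 and 7 of 24 alternatives, and CCNA2 after T104 under 11. The other SKP2 probes gave -0.12 and 0.24 after PW30, neither called (limma adjusted p = 0.624 and 0.652), and the mean of the tested probes gave -0.14 (adjusted p = 0.577).

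After T427 and after T408 limma called 0 genes of these 5 lists, where it called 0.333% and 0.271% of all genes. At an unadjusted p below 0.05 the other p53 targets passing were CD82, SUSD6, TIGAR and TP53I3 after T427 and CD82 after T408, or 4 and 1 of 18, where 7.51% and 7.99% of all genes passed. Of the cyclin list, 0 passed after T427 and RB1 alone after T408. ISG20 and MDM4 passed after both, and PPM1D after T427.

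The members differed in which other genes followed their pattern over the 12 arrays. The 3 tested genes most like CDKN1A were IER5, EPSTI1 and FAS (Pearson r = 0.98 for each), and those most like AEN were ZDHHC23, PHF1 and ANKRD46 (0.94, 0.94 and 0.93). GADD45A was most like MAFG, DCUN1D3 and KLC2 (0.94, 0.91 and 0.91), and MDM2 most like ATG2A, PCNP and DBT (0.92, 0.90 and 0.89). Among the members, CDKN1A correlated at 0.79 with GADD45A and at 0.76 with AEN, and GADD45A at 0.66 with AEN. MDM2 ran against AEN at -0.70, and CDKN1A against CDKN2D at -0.64 and SESN1 at -0.60. These values describe 12 arrays in 6 groups that share normalization and, within a group, treatment.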

How the data were processed

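Per the file headers, the authors deposited for each of 12 arrays a signal intensity before normalization and a detection p-value for 48780 probes. The authors' processed table holds linear intensities whose array medians were 138.9 to 139.0, and per the submitters' processing notes GenomeStudio was used, with no version. The intensities were corrected with normexp, controls being inferred from the detection p-values, given an offset of 16, quantile-normalized and converted to log2 (neqc, limma 3.58.1, R 4.3.3). A single gene was annotated for 28082 probes, several for 13 and none for 20685. Symbols were taken by Entrez identifier from RefSeq GRCh38.p14 for the 28043 probes whose identifier was found there, whether or not the symbol changed. The other 39 kept their symbol. The brightest of the tested probes stood for its gene. A linear model of 6 group means over 12 arrays (lmFit, eBayes) gave two-sided tests for 9 comparisons, 5 against untreated cells and 4 against CD30L-Fc, adjusted by Benjamini-Hochberg within each, with 95% intervals. Errors of changes are standard errors of that model. The code was tested on simulated data. Motifs and figures were made with Python 3.11.15 and matplotlib 3.10.9.

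The members, lists and named genes were chosen with earlier results of these data known. Named genes are all members, up to 4 called genes per list and treatment by smallest p, and the 3 genes most correlated with each called member; other genes are named as not called, not detected or past an unadjusted p. The array number limits the precision. Same-numbered replicates did not deviate together (r between -0.0758 and 0.107 over 15 pairs of groups, 1 above 0.1), so no pairing was used. Alternatives changed background correction, scaling, filter, probe choice, offset, variance prior, arrays fitted and adjustment, or left out each array.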

Additional observations from a re-analysis of the deposited data

How the results depend on the processing

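CDKN1A kept its 3 calls against untreated cells under all 24 alternatives, with log2 changes of 1.08 to 1.47 after PW30, 1.01 to 1.38 after T104 and 1.01 to 1.38 after CD30L-Fc. Over the 63 member changes and 1503 values, 1426 kept direction and side of the threshold, 30 calls were lost, 16 were gained, 0 called values reversed, and 31 uncalled values changed sign. Where the cause is not given by fewer genes, fewer arrays or another adjustment, it was not tested. Without background correction 2 members were called higher after T104, 0 lower after PW30 and 2 lower for T408 against CD30L-Fc, with 35 genes called after T408 and 58 for PW30 against CD30L-Fc. The authors' processed values gave 2, 0 and 2 members, and 34 and 58 genes. Scaling by the median left 1 member called higher after CD30L-Fc, moved the median of all genes after PW30 to -0.13 and turned the split of calls there to 362 higher and 569 lower, against 509 and 389 with quantile normalization (for PW30 against CD30L-Fc 1 and 15, against 4 and 9). With no filter on dim probes 1 member was higher after CD30L-Fc, and calls over all genes were 546 after PW30, 500 after T104, 10 after T427 and 13 after T408, with 0, 225 and 250 for PW30, T427 and T408 against CD30L-Fc. Requiring detection on all 12 arrays gave 2 members higher after T104, 0 lower after PW30 (MDM2 left untested), 2 lower for T408 against CD30L-Fc, and 32 genes for PW30 against CD30L-Fc. The mean of a gene's probes gave 3 members higher after T104 and 6 genes for PW30 against CD30L-Fc. An offset of 50 gave 2 members higher after T104, 2 lower for T408 against CD30L-Fc, and 34 genes for PW30 against CD30L-Fc. A variance prior with a trend gave 2 members higher after T104, 0 lower after PW30, 2 lower for T408 against CD30L-Fc, 41 genes after T408 and 71 for PW30 against CD30L-Fc. With only the 4 arrays of each comparison, calls were 490 after PW30 (0 members lower), 487 after T104, 402 after CD30L-Fc (1 member higher), 5 after T427, 9 after T408 and 1 for PW30 against CD30L-Fc. Adjusting over all 9 comparisons gave 1 member higher after CD30L-Fc, 63 genes after T427, 72 after T408, and 15 and 99 for T104 and PW30 against CD30L-Fc. Leaving out 1 array at a time, members called were 2 to 3 higher and 0 to 1 lower after PW30, 1 to 2 higher after T104, 1 to 2 higher after CD30L-Fc, 0 to 1 lower for T427 against CD30L-Fc and 0 to 2 lower for T408 against CD30L-Fc, and 0 in all other cases. All genes called then ran from 560 to 859 after PW30, 425 to 750 after T104, 367 to 688 after CD30L-Fc, 8 to 24 after T427 and 14 to 31 after T408. Against CD30L-Fc they ran from 0 to 1 for T104, 0 to 16 for PW30, 190 to 430 for T427 and 193 to 464 for T408. A group left with 1 array was taken to vary like the others. Of the pathway genes, FAS and ISG20 kept their calls against untreated cells whichever array was left out. CD82 did too, but on the probe not detected on the untreated arrays. By contrast, 10 of the 12 arrays, when removed, ended a call for SUSD6 after CD30L-Fc, TRIAP1 after PW30 and CDK6 after PW30. For CCNE1 after PW30 it was 11. The replicate block, with 831 genes called after PW30, 696 after T104 and 652 after CD30L-Fc, changed no member's call; it ended those of SUSD6 (after T104 and CD30L-Fc), CCNA2 (T104), CCND2, CCNE1, CDK6 and TRIAP1 (PW30), with limma adjusted p-values of 0.0511 to 0.0601. Signal near background limits MDM2, SESN2, CD82, TNFRSF8, the dimmest SKP2 probe and the second CDKN1A probe, and 2 arrays a group limit every interval.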
